A study of Rattus norvegicus with 12 samples.

Results

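Cardiac myocytes hear sympathetic and parasympathetic nerves and blood-borne peptides through G protein-coupled receptors, and 9 genes of that machinery were followed here across p300 knockdown and doxorubicin: the receptor genes Adrb1, Adra1a, Adra1b, Chrm2, Agtr1a, Ednra and Ednrb and the adenylyl cyclase genes Adcy5 and Adcy6. They were chosen by name, as the gene symbol that the platform annotation gives to a probe set, with the brightest probe set taken where a gene has several. Of the 9 listed genes, 7 had a probe set with that symbol, 1 each, among the 14506 genes with a value. Ednra and Ednrb, the endothelin receptors, had none in the annotation used and were not analysed here.

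The values come from 12 Affymetrix whole-transcript arrays of cardiac myocytes cultured from newborn Sprague Dawley rats. There were 4 groups of 3 arrays: p300 siRNA (p300kd) with 8 h of 1 µM doxorubicin (Dox), p300kd at 0 h, non-silencing siRNA (NS) with 8 h of Dox, and NS at 0 h. All cultures had been plated with bromodeoxyuridine against fibroblast growth, held over 90% myocytes by the submitters' account, and spent 48 h without serum before the drug. The same 3 experiments gave each group, so that the 0 h cultures are the only undrugged ones and time and drug cannot be told apart. A Dox change below therefore means 8 h with Dox against 0 h without it, time included.

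p300, encoded by Ep300, is a lysine acetyltransferase and transcriptional coactivator, and doxorubicin is an anthracycline that poisons topoisomerase II and can injure the heart. Noradrenaline on the beta-1 receptor (Adrb1) couples through the stimulatory G protein to adenylyl cyclases, of which type 5 (Adcy5) and type 6 (Adcy6) are the main cardiac forms, and the cAMP they make raises rate and force. The alpha-1 receptors (Adra1a, Adra1b), the angiotensin II receptor (Agtr1a) and the endothelin receptors couple through Gq to phospholipase C and are known for hypertrophic signalling in neonatal rat myocytes. Acetylcholine on the M2 receptor (Chrm2) works through the inhibitory G protein, which restrains the cyclases and opens a potassium channel built from Kcnj3 and Kcnj5.

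Ep300, the targeted gene, was lower on all p300kd arrays than on any NS array. Its log2 intensity was 10.10, 9.64 and 9.80 in p300kd cells at 8 h and 10.41, 10.02 and 10.05 in p300kd cells at 0 h, against 10.86, 10.72 and 10.72 in NS cells at 8 h and 11.16, 11.01 and 11.14 in NS cells at 0 h (experiments 1, 2 and 3, in that order throughout). Averaged over both times the p300kd level was 52.4% of the NS level (log2 change -0.93, SE 0.0894, limma adjusted p = 0.00212), a call that was lost without experiment 2 (-0.88, adjusted p = 0.348) or experiment 3 (-0.90, adjusted p = 0.168). The summed intensity of 11 cardiac myocyte markers was 91950 to 111600 in p300kd cells at 8 h, 89250 to 112500 in p300kd cells at 0 h, 99090 to 113000 in NS cells at 8 h and 96600 to 108900 in NS cells at 0 h, and 0 of the 11 passed in either Dox comparison in limma (1 and 0 at an unadjusted p under 0.05 in p300kd and NS cells; 3 rose and 1 fell in p300kd cells and 1 rose in NS cells with the experiment as a block). The 12 fibroblast markers summed to 38880 to 46900 over the p300kd arrays of both times and to 44880 to 49980 over the NS arrays of both times, so RNA of other cells was present in every culture. In such bulk RNA, fewer cells of a type and less RNA per cell cannot be told apart.

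**Figure D1:**
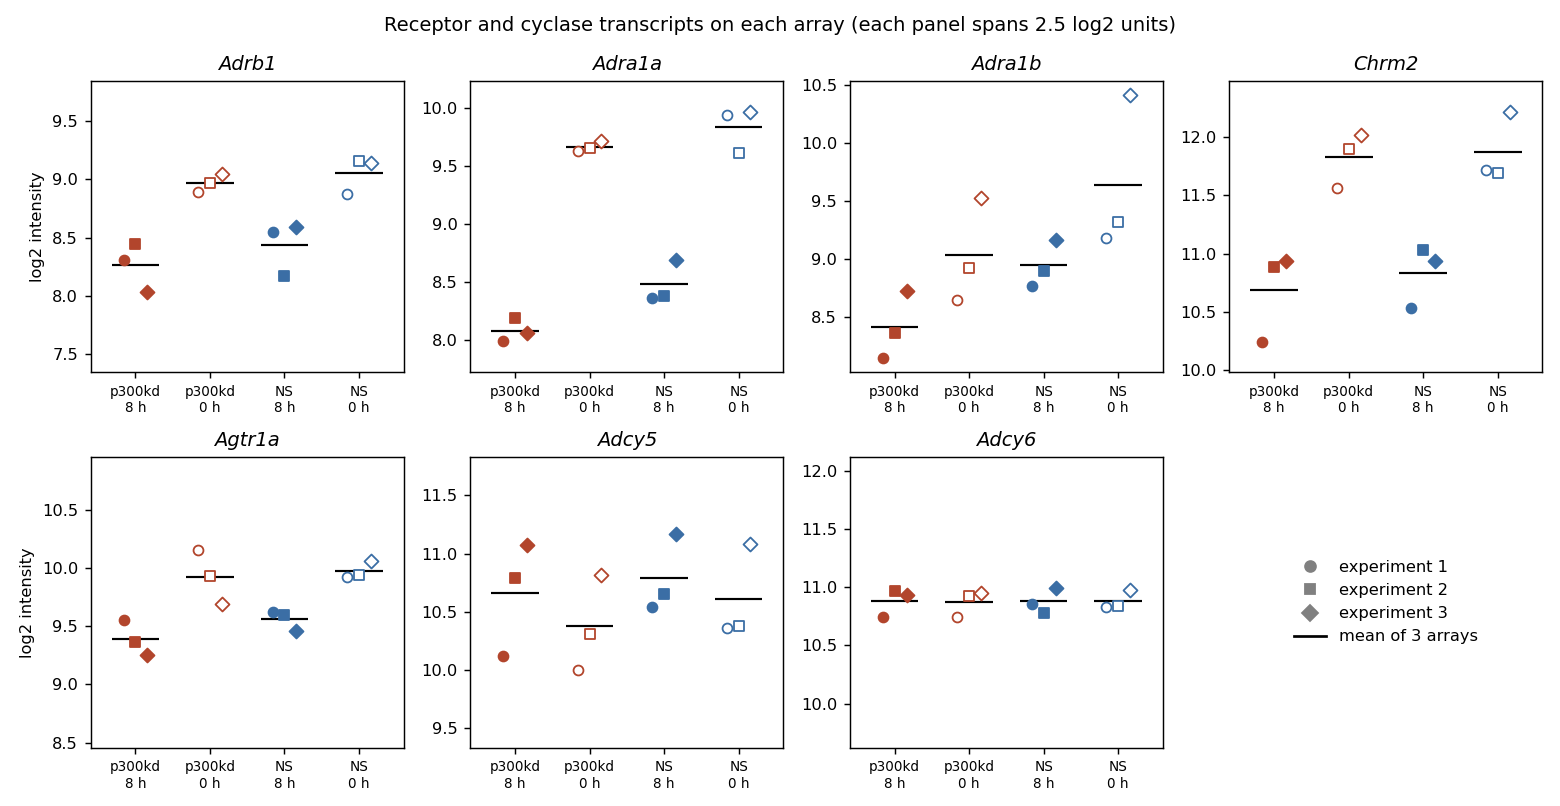
Log2 intensity of the 7 measured genes on each array, by group (p300kd 8 h, p300kd 0 h, NS 8 h, NS 0 h), with the experiment as the marker shape and the mean of 3 arrays as a line. Adra1a lies at 8.00 to 8.69 on the 8 h arrays and at 9.61 to 9.96 on the 0 h arrays, while Adcy6 stays between 10.74 and 11.00 on all 12.

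After 8 h of Dox, Adra1a, Chrm2, Adrb1 and Agtr1a were lower than at 0 h, in p300kd and in NS cells. The cyclase genes did not pass. A gene was called at a Benjamini-Hochberg adjusted p under 0.05 from limma, adjusted over all 14506 genes. In p300kd cells 4 of the 7 measured genes fell and 0 rose, where 17.5% of all genes fell, 13.9% rose and 31.4% were called in either direction. In NS cells 4 fell (2 without experiment 2) and 0 rose, where 16.4% of all genes fell, 11.1% rose and 27.5% were called. The median log2 change of the 7 was -0.62 in p300kd cells and -0.62 in NS cells, beside 0.0409 and 0.0362 over all genes tested. The 8 h and 0 h arrays did not overlap for 4 of the 7 in p300kd cells and 5 of the 7 in NS cells, all lower at 8 h, where 21.6% and 21.2% of all genes lay apart in that direction. With the experiment as a block in the fit, 5 fell and 1 rose in p300kd cells (22.8% and 22.9% of all genes), and 5 fell and 0 rose in NS cells (21.9% and 21.6% of all genes).

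Among the receptors coupled to Gq, Adra1a, the alpha-1A adrenergic receptor, changed most. Its log2 intensity was 8.00, 8.19 and 8.06 in p300kd cells at 8 h, against 9.62, 9.66 and 9.71 in p300kd cells at 0 h. In NS cells it was 8.37, 8.39 and 8.69 at 8 h, against 9.94, 9.61 and 9.96 at 0 h. The 8 h and 0 h arrays lay far apart in both kinds of cell, with the lowest 3 values of all 12 in the p300kd cells at 8 h. The level at 8 h was 33.4% of that at 0 h in p300kd cells (log2 change -1.58, SE 0.113, limma adjusted p = 1.39e-06) and 39.1% in NS cells (-1.35, SE 0.113, adjusted p = 4.70e-06). Under the 22 alternative settings the change ranged from -1.64 to -1.48 in p300kd cells and from -1.46 to -1.25 in NS cells, with the call held under each.

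Agtr1a, the type 1a angiotensin II receptor, fell by less. Its log2 intensity was 9.55, 9.36 and 9.25 in p300kd cells at 8 h, against 10.16, 9.93 and 9.69 in p300kd cells at 0 h. NS cells gave 9.62, 9.60 and 9.45 at 8 h, against 9.92, 9.94 and 10.06 at 0 h. The groups did not overlap, and every experiment gave a lower value at 8 h. The level at 8 h was 68.9% of that at 0 h in p300kd cells (log2 change -0.54, SE 0.118, limma adjusted p = 0.00391), a call lost without experiment 2 (-0.52, adjusted p = 0.0942). In NS cells it was 75.0% (-0.42, SE 0.118, adjusted p = 0.0192), and that call was lost without experiment 2 (-0.45, adjusted p = 0.146), without experiment 3 (-0.32, adjusted p = 0.129), without the NS 0 h array of experiment 3 (-0.37, adjusted p = 0.0692) and without the NS 8 h array of experiment 3 (-0.36, adjusted p = 0.0739).

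Adra1b, the alpha-1B adrenergic receptor, was lower at 8 h in all 3 experiments of both kinds of cell, but its arrays also differed widely between experiments. Its log2 intensity was 8.15, 8.37 and 8.72 in p300kd cells at 8 h, against 8.65, 8.92 and 9.52 in p300kd cells at 0 h. In NS cells it was 8.77, 8.90 and 9.17 at 8 h, against 9.18, 9.32 and 10.41 at 0 h. Experiment 3 had the highest value in each of the 4 groups, and the 8 h and 0 h arrays overlapped in p300kd cells and not in NS cells. The change was -0.62 in p300kd cells (SE 0.293, limma adjusted p = 0.130) and -0.69 in NS cells (SE 0.293, adjusted p = 0.101), neither of which passed. With the experiment as a block both passed (adjusted p = 9.41e-04 in p300kd cells and 4.50e-04 in NS cells), and in p300kd cells the call was also made without experiment 3 (-0.53, adjusted p = 0.0329) and without the NS 0 h array of experiment 3 (adjusted p = 0.0390). With an experiment or array left out the change ran from -0.81 to -0.37 in p300kd cells and from -0.92 to -0.30 in NS cells.

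Adrb1, the beta-1 receptor that couples to the stimulatory G protein, had log2 intensities of 8.31, 8.44 and 8.03 in p300kd cells at 8 h, against 8.89, 8.97 and 9.04 in p300kd cells at 0 h. NS cells gave 8.55, 8.17 and 8.59 at 8 h, against 8.87, 9.16 and 9.14 at 0 h. The 8 h arrays were all below the 0 h arrays, and the experiment with the largest fall was experiment 3 in p300kd cells (-1.01) and experiment 2 in NS cells (-0.99). The level at 8 h was 61.2% of that at 0 h in p300kd cells (log2 change -0.71, SE 0.133, limma adjusted p = 0.00140). In NS cells it was 65.1% (-0.62, SE 0.133, adjusted p = 0.00398), a call lost without experiment 2 (-0.44, adjusted p = 0.0857).

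Chrm2, the M2 muscarinic receptor, had log2 intensities of 10.24, 10.88 and 10.94 in p300kd cells at 8 h, against 11.57, 11.90 and 12.02 in p300kd cells at 0 h. In NS cells it had 10.53, 11.03 and 10.93 at 8 h, against 11.71, 11.69 and 12.22 at 0 h. The 8 h arrays were again all below the 0 h arrays. The level at 8 h was 45.3% of that at 0 h in p300kd cells (log2 change -1.14, SE 0.204, limma adjusted p = 0.00103) and 48.6% in NS cells (-1.04, SE 0.204, adjusted p = 0.00224). Of its channel subunits, Kcnj5 fell in both kinds of cell (-2.07, SE 0.130 in p300kd cells and -2.21, SE 0.130 in NS cells) and Kcnj3 did not pass in either (0.09 and 0.03, SE 0.278 each, with the sign turning when single experiments or arrays were left out).

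The cyclases moved otherwise. Adcy5 had log2 intensities of 10.12, 10.79 and 11.08 in p300kd cells at 8 h, against 10.00, 10.31 and 10.81 in p300kd cells at 0 h. NS cells gave 10.55, 10.65 and 11.17 at 8 h, against 10.36, 10.38 and 11.08 at 0 h. Each experiment gave a slightly higher value at 8 h, with groups that overlapped. The change was 0.29 in p300kd cells (SE 0.277, limma adjusted p = 0.462, and 0.0209 with the experiment as a block) and 0.18 in NS cells (SE 0.277, adjusted p = 0.676, and 0.144 with the block). With an experiment or array left out the p300kd change ran from 0.081 to 0.56 and the NS change from -0.0082 to 0.42.

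Adcy6 had log2 intensities of 10.74, 10.97 and 10.94 in p300kd cells at 8 h, against 10.75, 10.92 and 10.95 in p300kd cells at 0 h. NS cells gave 10.86, 10.78 and 11.00 at 8 h, against 10.83, 10.84 and 10.97 at 0 h. These groups lay on top of each other. The 95% interval of the Dox change was -0.19 to 0.21 in p300kd cells and -0.20 to 0.20 in NS cells, so changes larger than that in size lie outside it.

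**Figure D2:**
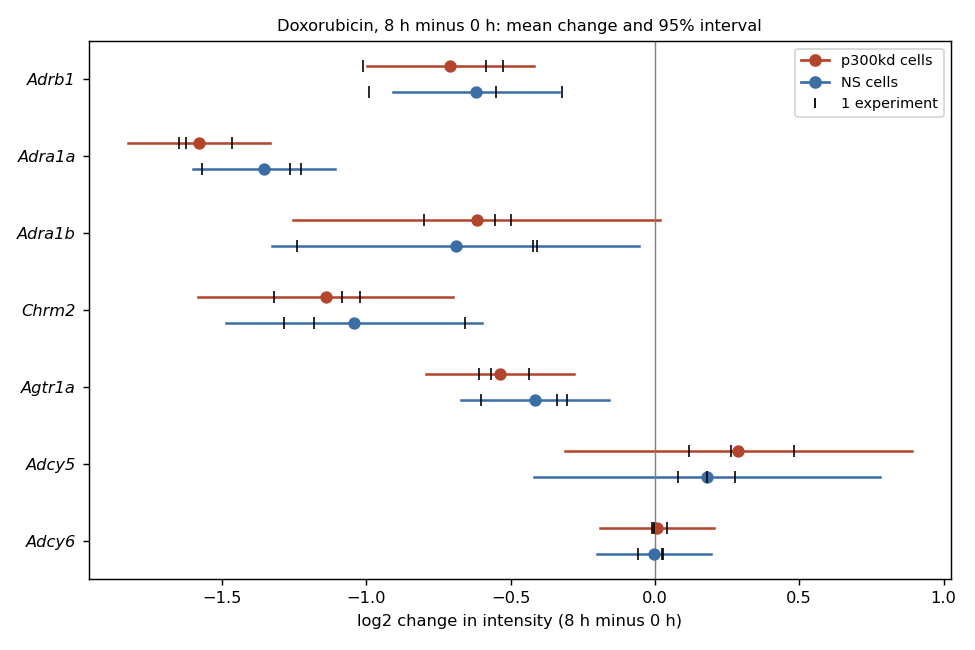
Log2 change in intensity from 0 h to 8 h of Dox for the 7 genes in p300kd and NS cells (dots, mean of 3 experiments; bars, 95% interval from limma; ticks, single experiments). The intervals of Adra1a, Chrm2, Adrb1 and Agtr1a lie below 0 in both kinds of cell, and those of Adcy5 and Adcy6 span it.

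The fall of the receptors was set beside the cell type markers. Of 6 ventricular myocyte markers 3 fell in p300kd cells and 3 in NS cells, and their summed intensity was 36670 to 43420 in p300kd cells at 8 h, against 45230 to 54260 in p300kd cells at 0 h, and 40110 to 44690 in NS cells at 8 h, against 48130 to 54120 in NS cells at 0 h. Of 11 smooth muscle and pericyte markers 1 rose and 3 fell in p300kd cells and 1 rose and 4 fell in NS cells. Of 12 fibroblast markers 1 rose and 1 fell in either kind of cell. Of 10 endothelial markers 0 rose and 2 fell in either kind of cell. The 11 macrophage and leukocyte markers gave 1 rise and 2 falls in p300kd cells and 1 fall in NS cells. The 6 atrial markers gave 1 rise in p300kd cells and 0 calls in NS cells. The 6 nerve and Schwann cell markers gave 2 rises in p300kd cells and 3 in NS cells. Over all genes 13.9% rose and 17.5% fell in p300kd cells, and 11.1% and 16.4% in NS cells. The block called 1 rise and 3 falls of the ventricular markers in both kinds of cell, 4 rises and 4 falls of the smooth muscle markers in both, and 3 rises and 2 falls of the fibroblast markers in p300kd cells and 2 of each in NS cells. For the endothelial markers the block called 1 rise and 3 falls in p300kd cells and 2 and 4 in NS cells. Macrophage and leukocyte markers had 2 of each in p300kd cells and 3 rises and 1 fall in NS cells. Atrial markers had 3 rises in p300kd cells and 3 rises and 1 fall in NS cells. Nerve and Schwann cell markers had 4 rises in p300kd cells and 3 in NS cells. Over all genes it called 22.9% higher and 22.8% lower in p300kd cells, and 21.6% and 21.9% in NS cells. The markers' part in the receptors' fall was not tested.

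The promoters of 3 of the 4 called genes, from the RefSeq table of the GRCr8 build, are printed because these transcripts fell together. The table matched 7 of the 9 listed genes and held no entry for Adra1a. Each runs from 250 bases before to 50 bases after the gene's start, 5′ to 3′ on the gene's own strand, at chr1:265776853-265777152 (plus strand) for Adrb1, chr4:65982200-65982499 (plus strand) for Chrm2 and chr17:34435383-34435682 (minus strand) for Agtr1a. Capitals mark matches to 5 short motifs searched on both strands: GATAA, to which GATA factors bind, TNAAGTG, known as an Nkx2-5 element, TGACG, the core of the cAMP response element, GGGCGG, known as the GC box, and TATAAA, known as the TATA box.
Adrb1: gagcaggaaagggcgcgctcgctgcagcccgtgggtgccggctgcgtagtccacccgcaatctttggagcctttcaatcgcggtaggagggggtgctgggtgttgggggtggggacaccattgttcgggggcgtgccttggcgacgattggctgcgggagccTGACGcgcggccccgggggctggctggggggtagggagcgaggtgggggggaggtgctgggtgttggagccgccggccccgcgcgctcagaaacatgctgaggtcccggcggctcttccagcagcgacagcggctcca
Chrm2: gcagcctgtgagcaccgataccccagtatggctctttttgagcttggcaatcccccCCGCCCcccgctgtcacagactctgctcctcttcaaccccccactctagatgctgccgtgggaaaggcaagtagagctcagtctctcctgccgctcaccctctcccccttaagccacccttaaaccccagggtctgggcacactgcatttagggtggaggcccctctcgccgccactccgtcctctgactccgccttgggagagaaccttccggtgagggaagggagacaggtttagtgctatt
Agtr1a: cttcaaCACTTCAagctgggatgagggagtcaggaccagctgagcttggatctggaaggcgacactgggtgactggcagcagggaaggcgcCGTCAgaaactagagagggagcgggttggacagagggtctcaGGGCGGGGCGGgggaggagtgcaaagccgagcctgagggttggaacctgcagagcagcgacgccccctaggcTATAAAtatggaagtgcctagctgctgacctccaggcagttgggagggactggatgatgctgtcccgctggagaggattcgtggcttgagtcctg

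No motif of the 5 was common to all 3 promoters. Adrb1 and Agtr1a both held TGACG, and Chrm2 and Agtr1a both held a GC box. The promoters of Adra1b and Adcy5, which were not called in the main fit, held GC boxes too. Adrb1 held 1 match, a TGACG at -88 from the start, which 21.2% of the 33469 promoters in the table hold on either strand. Chrm2 held 1 GC box, on the opposite strand at -194, where 33.1% of all promoters hold one. Agtr1a held a TATA box at -45 (14.2% of all promoters), 2 GC boxes at -117 and -112 that overlap by a base, the TGACG core on the opposite strand at -159, and the Nkx2-5 element on the opposite strand at -244 (11.5% of all promoters). A match is a string of letters in this window and was not set against any binding data.

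With less p300, 0 of the 7 genes passed at 0 h, at 8 h or averaged over both times. The shares of all genes called in either direction were 0.0207% at 0 h, 0.0483% at 8 h and 1.25% on average, and 0.0138%, 0.0483% and 1.02% fell, so few genes of any kind passed these tests. At an unadjusted p under 0.05 in limma there were 0 of the 7 at 0 h, 1 at 8 h and 2 on average. Of all 14506 genes 1008, 1155 and 1845 were under it. All 7 had a lower mean in p300kd than in NS cells at 0 h, and 6 of 7 at 8 h, with medians of -0.09 and -0.17 beside 0.00406 and 0.00510 over all genes tested. Of all 14506 genes 7020 and 6952 had a lower mean, and of the 109 other pathway genes read below 67 and 66. The lowering was not uniform. With an experiment or array left out the sign turned for Chrm2, Adcy5, Adcy6 and Agtr1a at 0 h. At 8 h it turned for Adrb1, Chrm2, Adcy5 and Adcy6. With the experiment as a block 1 gene passed at 0 h, 2 passed at 8 h and 2 on average, all lower in p300kd cells, where the block called 1.99%, 2.37% and 6.29% of all genes lower.

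Those genes were the alpha-1 receptors. Adra1b was lower in p300kd cells in each experiment, by 0.53, 0.40 and 0.89 log2 units at 0 h and by 0.62, 0.53 and 0.44 at 8 h. Its mean was 65.8% of the NS level at 0 h (log2 change -0.60, SE 0.293, limma adjusted p = 0.739, and 0.0193 with the block), 69.2% at 8 h (-0.53, SE 0.293, adjusted p = 0.690, and 0.0390 with the block) and 67.4% on average (-0.57, SE 0.207, adjusted p = 0.252, and 0.00129 with the block). The p300kd and NS arrays overlapped at 0 h and did not at 8 h, where 6.29% of all genes lay apart in that direction. With an experiment or array left out the change ran from -0.85 to -0.22 at 0 h, from -0.69 to -0.40 at 8 h and from -0.69 to -0.38 on average.

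Adra1a was lower in p300kd cells at 8 h in each experiment, by 0.37, 0.20 and 0.63 log2 units, and the 8 h arrays did not overlap. Its mean there was 75.9% of the NS level (log2 change -0.40, SE 0.113, unadjusted p = 0.00397 in limma, adjusted p = 0.336, and 0.0391 with the block). At 0 h the change was -0.17 (95% interval -0.42 to 0.07), with experiment 2 slightly the other way at 0.04. The average was -0.29 (SE 0.0802, adjusted p = 0.121, and 0.0156 with the block).

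For the other 5 genes the 95% interval of the average difference spanned 0 in the fit without the block: -0.34 to 0.07 for Adrb1, -0.41 to 0.22 for Chrm2, -0.29 to 0.07 for Agtr1a, -0.60 to 0.25 for Adcy5 and -0.14 to 0.14 for Adcy6. Adcy6 thus had the narrowest and Adcy5 the widest of these 5 in that fit. With the experiment as a block the SE of Adcy5 was 0.0671, and Adrb1 had the largest, 0.0884. The Adcy5 difference of -0.18 then had an unadjusted p = 0.0175 in limma and did not pass (adjusted p = 0.113). Macrophage and leukocyte markers were lower with the p300 siRNA: 5 of 11 fell on average (9 with the block), and their summed intensity was 7642 to 9340 in p300kd cells at 8 h, against 10020 to 11660 in NS cells at 8 h, and 6969 to 8981 in p300kd cells at 0 h, against 9478 to 11520 in NS cells at 0 h. Of the 12 fibroblast markers 1 fell (6 with the block), and 11 had a lower mean in p300kd cells. Of the 11 smooth muscle and pericyte markers 1 fell (3 fell and 1 rose with the block), and 7 had a lower mean. Of the 10 endothelial markers 0 passed (1 fell with the block, and 2 were at an unadjusted p under 0.05 in limma), and all 10 had a lower mean. The 11 cardiac myocyte markers had 0 passing (1 rose with the block), and 8 had a lower mean. The 6 ventricular markers had 0 passing in either fit, and 5 had a lower mean. The 6 atrial markers had 0 passing (2 fell with the block), and 3 had a lower mean. The 6 nerve and Schwann cell markers had 0 passing in either fit, and 5 had a lower mean. Over all 14506 genes 6875 had a lower mean and 1.02% fell (6.29% with the block). The markers' part in the lower alpha-1 receptor values was not tested.

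**Figure D3:**
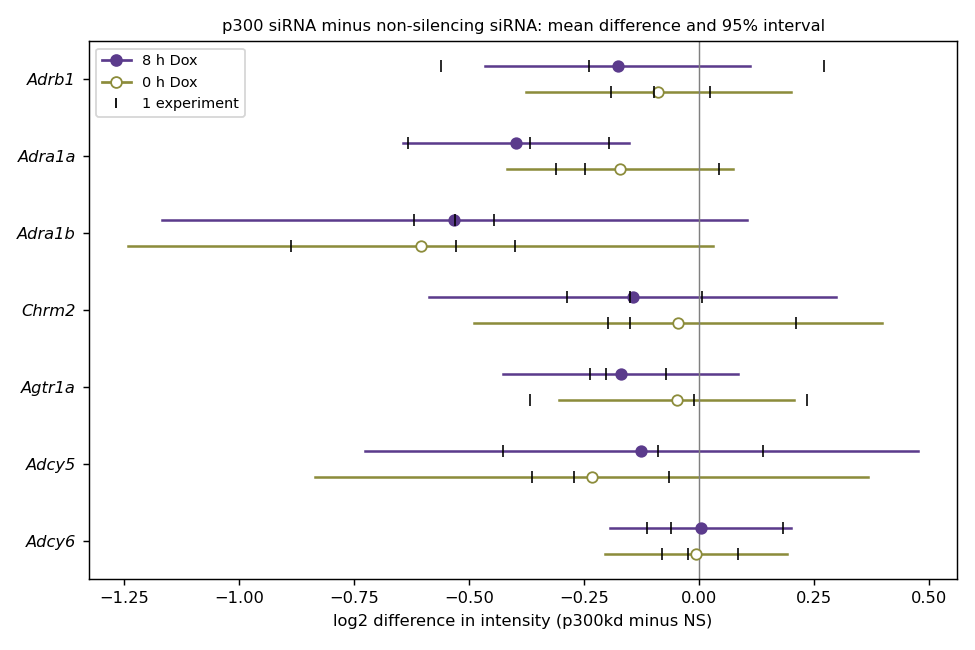
Log2 difference in intensity between p300kd and NS cells for the 7 genes at 8 h (filled) and 0 h (open) of Dox, with 95% intervals from limma and single experiments as ticks. Adra1b lies near -0.53 and -0.60 with every experiment below 0, Adra1a near -0.40 at 8 h, and the Adcy6 values lie around 0.

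Whether the response to Dox differed between p300kd and NS cells was tested as the difference of the changes. None of the 7 passed (0 of 7 at an unadjusted p under 0.05 in limma and 0 with the experiment as a block, where 0% of all 14506 genes passed in either fit). At an unadjusted p under 0.05 in limma there were 228 of all 14506 genes, so few genes of any kind were under it. The point estimate furthest from 0 was that of Adra1a, -0.23 (95% interval -0.57 to 0.12). The intervals reached from -0.50 to 0.32 for Adrb1, from -0.73 to 0.53 for Chrm2, from -0.48 to 0.24 for Agtr1a, from -0.83 to 0.97 for Adra1b, from -0.74 to 0.96 for Adcy5 and from -0.27 to 0.29 for Adcy6. These intervals are from the fit without the block. A difference as large as the Dox changes of Adra1a or Chrm2 themselves lies outside the intervals of those genes. One of the size of the Adra1b change lies inside its own interval in that fit. With the experiment as a block the SE of the Adra1b difference (0.07) was 0.181, against 0.415 without it. Its interval is thus narrower there, and such a difference is not shown to lie inside it.

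The genes differed in how much of their spread went with the experiment. Of the variance within groups the experiment held 90.1% for Adcy5, 82.4% for Adra1b, 76.8% for Chrm2, 63.8% for Adcy6, 44.1% for Agtr1a, 29.9% for Adra1a and 1.55% for Adrb1. Noise alone gives some share, so the lower ones need not reflect an experiment effect, and no share was tested. Experiment 3 was highest in all 4 groups for Adra1b and for Adcy5, whose arrays lay on average 0.45 and 0.43 log2 units above their group means there. Agtr1a ran the other way, 0.10 above its group means in experiment 1 and 0.10 below them in experiment 3.

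The summed cardiac myocyte markers averaged 94220, 103000 and 111500 in experiments 1, 2 and 3. Smooth muscle and pericyte markers averaged 49510, 45430 and 40350, and fibroblast markers 48060, 43390 and 42340. Ventricular markers averaged 42530, 46040 and 49120, and endothelial markers 3007, 2737 and 2581. The other lists followed neither order: 32630, 36930 and 36440 for atrial, 9609, 10250 and 8526 for macrophage and leukocyte, and 1745, 1814 and 1787 for nerve and Schwann cell markers. In the order of their means Adra1b and Adcy5 thus went with the cardiac myocyte and ventricular markers. Agtr1a went with the smooth muscle, fibroblast and endothelial markers, but not in NS cells at 0 h (9.92, 9.94 and 10.06). The part of cell composition in these orders was not tested.

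**Figure D4:**
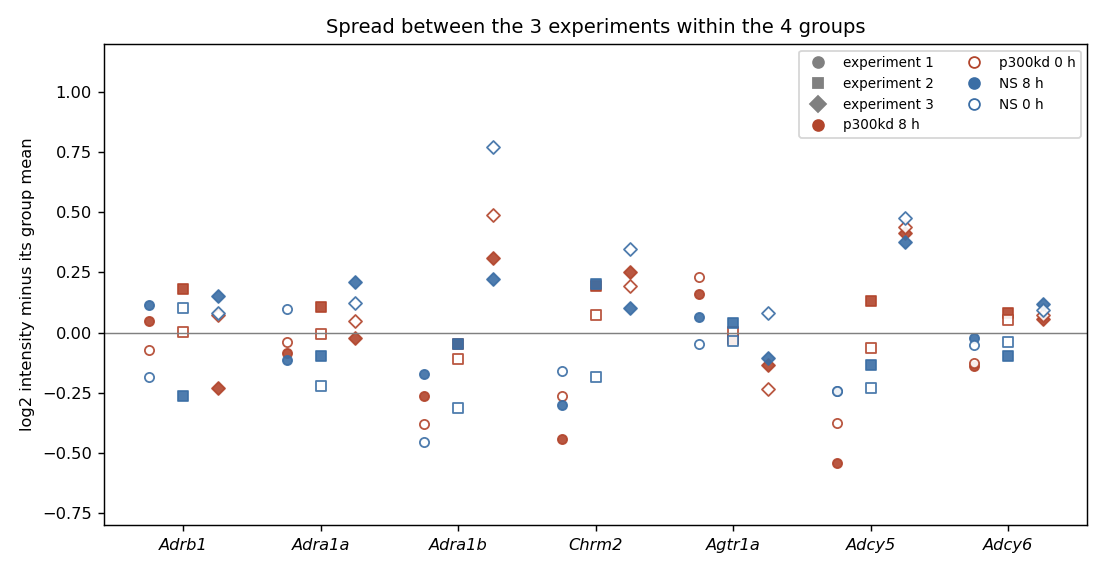
Log2 intensity minus its group mean for each array of the 7 genes, by experiment (marker shape) and group (colour and fill). For Adcy5 and Adra1b the 4 arrays of experiment 3 lie above all others of the same gene, whereas for Adrb1 the experiments mix.

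Over the 12 arrays the profiles most like those of the 7 genes were found by Pearson correlation of log2 values, given as a description, since many genes change with Dox. Adra1a was closest to Stard8 and Cant1 (r = 0.987 each). Chrm2 was closest to Irx4 (r = 0.988), a ventricular transcription factor that is on the ventricular marker list, and to Cpt1a (r = 0.987), which encodes the carnitine palmitoyltransferase of fatty acid entry into mitochondria. Adcy5 was closest to Tnni3 (r = 0.979), cardiac troponin I and on the cardiac myocyte marker list, and to Ech1 (r = 0.977).

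Adrb1 was closest to Gga1 and Irx5 (r = 0.968 each), and Agtr1a to Socs3 (r = 0.967) and Rin2 (r = 0.966). For Adra1b these were Ptprk (r = 0.960) and Adh1c (r = 0.954), and for Adcy6 Inppl1 (r = 0.958) and Asic1 (r = 0.953). Among the 7 themselves Adra1a and Chrm2 had r = 0.928, Adra1a and Adrb1 0.919, and Adcy5 and Adcy6 0.826, while Adcy5 and Agtr1a had -0.511. These correlations mix the Dox change with the spread between experiments.

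The wider pathway was read from 9 lists of 117 other genes, 109 of them measured. From 0 h to 8 h of Dox, 20 of the 109 rose and 21 fell in p300kd cells, and 19 rose and 23 fell in NS cells. Of all 14506 genes 13.9% rose and 17.5% fell in p300kd cells, and 11.1% and 16.4% in NS cells. With the experiment as a block 32 rose and 29 fell in p300kd cells, and 31 rose and 27 fell in NS cells. The block called 22.9% of all genes higher and 22.8% lower in p300kd cells, and 21.6% and 21.9% in NS cells. The list counts here and below were not tested against these shares. The lists' median changes were 0.000456 in p300kd cells and 0.0293 in NS cells over all 109. Without experiment 2 the calls came to 8 rises and 15 falls in p300kd cells and to 2 and 12 in NS cells, and without experiment 3 to 9 and 16 in p300kd cells and 8 and 13 in NS cells. In NS cells they also came to 9 and 18 without the NS 0 h array of experiment 1 and to 12 and 15 without that of experiment 3. The calls named below held under all 22 alternatives except where a loss is given, as did 19 of the 34 calls eligible for naming in p300kd cells and 13 of 34 in NS cells.

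Of the 12 other receptors measured in the same families, 4 rose and 0 fell in p300kd cells (5 and 0 with the block), and 2 rose and 1 fell in NS cells (3 and 1 with the block). Not all of these calls held. Of the 22 alternatives, 7 no longer called the rise of Chrm3, the M3 muscarinic receptor, in p300kd cells, and 13 no longer called the fall of Adra1d, the alpha-1D receptor, in NS cells. Adra2a, the alpha-2A adrenergic receptor that couples to the inhibitory G protein, had log2 intensities of 9.46, 9.32 and 9.33 in p300kd cells at 8 h, against 8.68, 8.60 and 8.72 in p300kd cells at 0 h, and 9.51, 9.36 and 9.49 in NS cells at 8 h, against 8.52, 8.64 and 8.62 in NS cells at 0 h. It rose by 0.70 (SE 0.0801) in p300kd cells and by 0.86 (SE 0.0801) in NS cells. Adrb3, the beta-3 receptor, rose by 0.57 (SE 0.0967) in p300kd cells and by 0.55 (SE 0.0967) in NS cells.

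Receptors are switched off by kinases, arrestins and RGS proteins. Of 15 such genes measured, 8 fell and 0 rose in p300kd cells (8 fell and 1 rose with the block) and 7 fell and 0 rose in NS cells (7 fell and 2 rose with the block). Rgs5, an RGS protein known from pericytes, changed by 0.65 in p300kd cells (SE 0.292, limma adjusted p = 0.109, and 4.44e-06 with the block) and by 0.43 in NS cells (SE 0.292, adjusted p = 0.301, and 2.24e-04 with the block), and without experiment 1 it was called in both (adjusted p = 7.27e-04 in p300kd cells and 0.00525 in NS cells). Arrb1 (beta-arrestin 1, which uncouples phosphorylated receptors) fell by 0.84 in p300kd cells and 0.89 in NS cells (SE 0.0763 each). Rgs19, which speeds GTP hydrolysis on inhibitory G proteins, fell by 0.95 in p300kd cells and 0.74 in NS cells (SE 0.0876 each), and the receptor kinase Grk6 by 0.75 and 0.65 (SE 0.0782 each). Rgs2, which acts on Gq, fell by 0.49 in p300kd cells and 0.30 in NS cells (SE 0.0980 each), the NS call being lost under 12 alternatives.

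Downstream of the cyclases the lists were mixed. Of 18 cAMP effectors and anchoring proteins 6 rose and 5 fell in both kinds of cell (8 and 6 with the block in p300kd cells, and 10 and 6 in NS cells). Of 13 phosphodiesterases 1 rose and 3 fell in p300kd cells and 2 rose and 3 fell in NS cells (3 and 4 with the block in both). The anchoring protein Akap13 fell by 1.25 in p300kd cells and 1.22 in NS cells (SE 0.140 each), and Akap6, which anchors protein kinase A at the nuclear envelope of myocytes, by 0.63 in p300kd cells and 0.47 in NS cells (SE 0.126 each), with the NS call lost under 4 alternatives. The cAMP phosphodiesterases Pde4b and Pde4d fell, Pde4b by 1.12 in p300kd cells and 1.05 in NS cells (SE 0.130 each) and Pde4d by 0.63 and 0.76 (SE 0.102 each).

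Among the same effectors Crem, a cAMP-responsive transcription modulator, rose by 0.71 in p300kd cells and 0.52 in NS cells (SE 0.107 each). Prkar2b, a regulatory subunit of protein kinase A, rose by 0.63 in p300kd cells and 0.40 in NS cells (SE 0.0966 each), and Pkia, a protein kinase A inhibitor, by 0.55 and 0.42 (SE 0.0973 each). The NS calls of these 3 were lost without experiment 2 (limma adjusted p = 0.0652 for Crem, 0.125 for Prkar2b and 0.0701 for Pkia), and that of Prkar2b also without experiment 3 (adjusted p = 0.0697). Rapgef3, the cAMP-activated exchange factor Epac1, fell by 0.49 in p300kd cells and 0.52 in NS cells (SE 0.0929 each). Of 6 other adenylyl cyclases 3 rose and 0 fell in both kinds of cell (4 and 0 with the block). Of 12 ligands and ligand-processing enzymes 4 rose and 0 fell in p300kd cells (7 and 1 with the block), and 5 rose and 0 fell in NS cells (6 and 0 with the block).

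On the Gq branch, of 15 phospholipase C, IP3 receptor and protein kinase C genes, 4 fell and 1 rose in p300kd cells and 5 fell and 0 rose in NS cells (5 and 1, and 5 and 0, with the block). Plce1, a phospholipase C isoform, fell by 1.03 in p300kd cells and 0.98 in NS cells (SE 0.136 each). The protein kinase C genes Prkcd and Prkce fell as well, Prkcd by 0.59 and 0.65 (SE 0.0866 each) and Prkce by 0.57 and 0.55 (SE 0.0921 each), and Prkca by 0.40 and 0.30 (SE 0.0935 each), its NS call being lost under 9 alternatives.

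Of 16 G protein subunits 1 rose and 0 fell in p300kd cells (3 rose and 4 fell with the block), and 1 rose and 1 fell in NS cells (3 of each with the block). Gnai1, an inhibitory alpha subunit, rose by 0.74 in p300kd cells and 0.59 in NS cells (SE 0.109 each), the NS call being lost without experiment 2 (limma adjusted p = 0.0535). Gna13, another alpha subunit, changed by -0.60 in p300kd cells (SE 0.218, adjusted p = 0.0515, and 2.71e-04 with the block) and by -0.63 in NS cells (SE 0.218, adjusted p = 0.0490). Its call changed under 8 of 22 alternatives in p300kd cells and under 12 of 22 in NS cells.

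**Figure D5:**
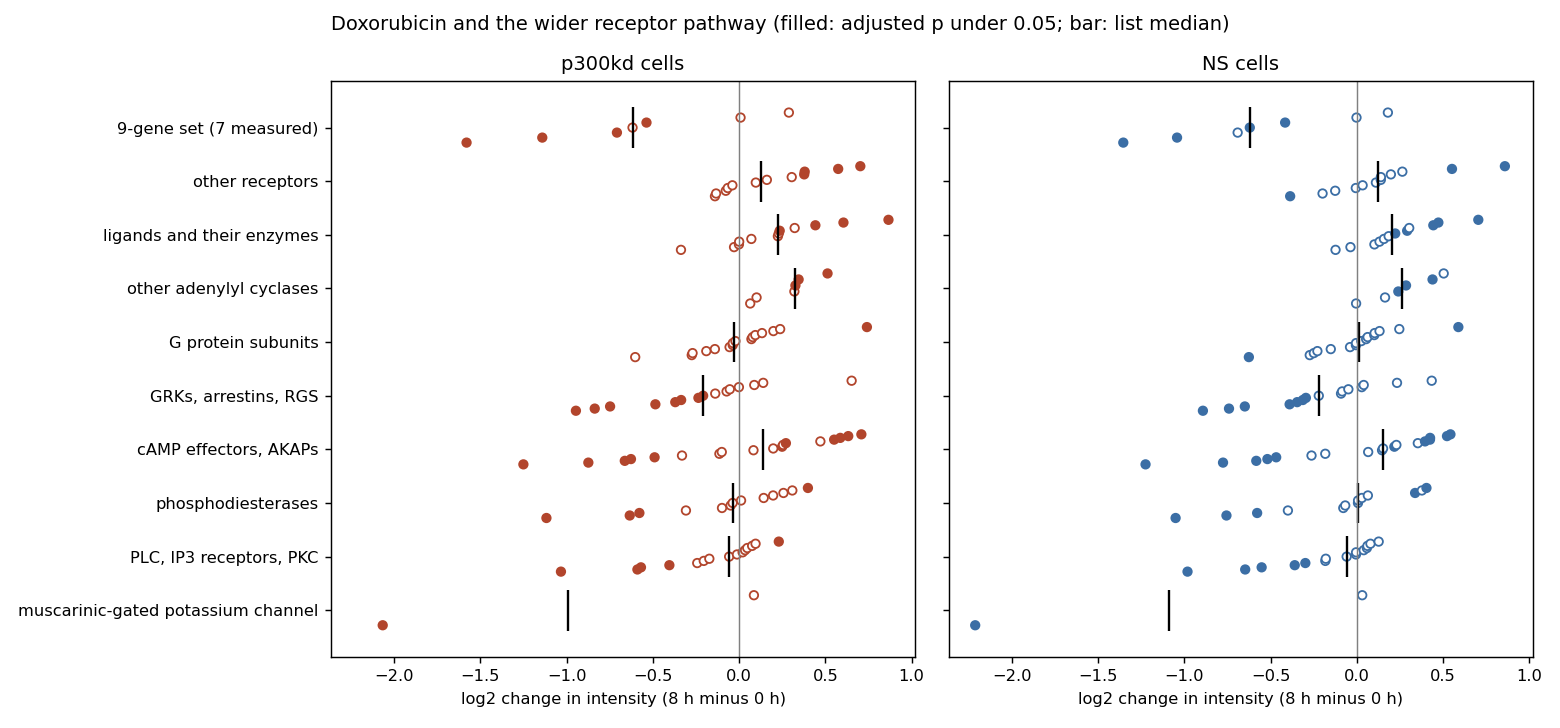
Log2 change in intensity with Dox (8 h minus 0 h) of every measured gene of the 9-gene set and of the 9 other lists, in p300kd cells (left) and NS cells (right). Filled points passed at an adjusted p under 0.05 and vertical bars mark list medians, which lie at -0.62 for the 9-gene set in both panels and at -0.21 in p300kd cells and -0.22 in NS cells for the receptor kinases, arrestins and RGS proteins.

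With less p300, 0 of the 109 other genes passed at 0 h and 0 at 8 h (7 and 9 at an unadjusted p under 0.05 in limma, and 4 and 3 with the experiment as a block, all lower), and 2 fell and 0 rose on average (2 rose and 11 fell with the block, and 1 rose and 4 fell without experiment 1). Without experiment 1 there was 1 fall at 0 h and 1 at 8 h, both of Gnai2, and without the p300kd 0 h array of experiment 1 Ace fell at 0 h (-0.62, adjusted p = 0.0348 in limma). The 2 called on average were Ace, the angiotensin-converting enzyme (-0.45, SE 0.0858, limma adjusted p = 0.0309), and Arrb1 (-0.30, SE 0.0540, adjusted p = 0.0257). Both calls were lost without experiment 2 (Ace -0.38, Arrb1 -0.29), without experiment 3 (Ace -0.42, Arrb1 -0.28) and without any 1 array of those experiments, and that of Ace also without the NS 0 h array of experiment 1 (-0.45, adjusted p = 0.0567). Ace had log2 intensities of 10.55, 10.50 and 10.37 in p300kd cells at 8 h, against 10.90, 11.01 and 10.83 in NS cells at 8 h, and 10.48, 9.99 and 9.98 in p300kd cells at 0 h, against 10.62, 10.67 and 10.54 in NS cells at 0 h.

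Gnai2, the inhibitory G protein alpha subunit 2, through which M2 receptors can signal, did not pass but split by experiment. Its log2 intensity was 13.43, 11.99 and 12.08 in p300kd cells at 8 h and 13.34, 11.72 and 11.84 in p300kd cells at 0 h, against 13.44, 13.43 and 13.44 in NS cells at 8 h and 13.35, 13.39 and 13.38 in NS cells at 0 h. The p300kd arrays of experiment 1 lay beside the NS arrays of their own time, and those of experiments 2 and 3 lay more than 1 unit below. The average change was -1.01 (SE 0.280, limma adjusted p = 0.120, and 0.00344 with the experiment as a block). Without experiment 1 it was -1.50 (adjusted p = 9.98e-07), without the p300kd 0 h array of experiment 1 -1.27 (adjusted p = 0.0179) and without the p300kd 8 h array of experiment 1 -1.24 (adjusted p = 0.0275). Over the same experiments Ep300 was lower by 0.76, 1.03 and 1.01 log2 units on average.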

How the data were processed

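Total RNA of 12 cultures was hybridised to whole-transcript arrays. The deposited table gives a linear intensity for each probe set (8.05 to 25315 over all arrays), which per the submitters' processing notes come from Affymetrix Expression Console 1.1 with RMA; how they became linear and the genome build are not given in the sources used here. Log2 was taken here. Of 29214 probe sets, 15310 had 1 gene symbol, 323 several and 13581 none in the platform annotation; the brightest probe set per gene over all arrays left 14506 genes, with no filter on level. The number of arrays limits the precision.

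Group and replicate number came from the titles and treatment labels. limma 3.58.1 (R 4.3.3) fitted the means of the 4 groups on all arrays, with lmFit and a trended eBayes that left 8 residual degrees of freedom. Two-sided p-values of each of 6 comparisons were adjusted over the 14506 genes by the Benjamini-Hochberg method. Changes are 8 h minus 0 h and p300kd minus NS, and the limma script was tested on simulated data. The series states 3 experiments; whether replicate numbers name them was checked on deviations from group means. Correlated across genes, these deviations had a median r of 0.504 (lowest 0.172, highest 0.689) over the 18 same-number pairs and of -0.271 over 36 pairs of unlike number, and each of the 12 arrays lay nearest its own number, so the number is called the experiment and the block value stands beside the calls and counts it changes.

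The 9 genes, the 9 pathway lists and the 8 marker lists were chosen with earlier results of these data known. Named were Ep300, the 9 genes, per list and comparison up to 4 passing genes per direction and 2 that did not pass, those with the largest change, and for each gene the 2 most correlated over 12 arrays; of the passing Dox genes the text names those whose call held under every alternative in at least 1 kind of cell; Chrm3, Adra1d, Rgs5 and Gna13 were added after their values were seen. Alternatives were the block, only the groups compared, 2 centrings, no trend, a filter on dim genes, the mean of probe sets, and each experiment or array left out. Sequences are RefSeq promoters of GRCr8.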

Additional observations from a re-analysis of the deposited data

How the results depend on the processing

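Of the 7 genes, 4 were called for Dox in p300kd cells and 3 to 5 when an experiment or array was left out; in NS cells 4 were called and 2 to 4 with 1 left out, the 2 without experiment 2. Counts for the p300 siRNA stayed at 0 in every alternative run except the block, which called 1 gene at 0 h, 2 at 8 h and 2 on average; for the difference of responses the count was 0 in every alternative run. The block changed no call of the 7 genes beyond those given with the results.

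Sign changes came only in values that were not called. Centring each array on the median of the genes tested, chosen after seeing the data, gave Adcy6 0.10 for Dox in NS cells and 0.0047 for p300kd on average, and centring on the median of all probe sets gave it -0.0056 for p300kd at 8 h. Other sign changes appeared with an experiment or array left out, as ranges of the log2 change. For Dox in p300kd cells these were Adcy6 -0.055 to 0.077 and Kcnj3 -0.12 to 0.38. For Dox in NS cells these were Adcy5 -0.0082 to 0.42, Adcy6 -0.061 to 0.047 and Kcnj3 -0.15 to 0.30. For p300kd at 0 h these were Chrm2 -0.17 to 0.13, Adcy5 -0.45 to 0.0046, Adcy6 -0.053 to 0.056 and Agtr1a -0.19 to 0.11. For p300kd at 8 h these were Adrb1 -0.40 to 0.016, Chrm2 -0.29 to 0.078, Adcy5 -0.33 to 0.15 and Adcy6 -0.087 to 0.072. For p300kd on average these were Chrm2 -0.17 to 0.016 and Adcy6 -0.070 to 0.046. For the difference of responses these were Adrb1 -0.36 to 0.10, Adra1b -0.31 to 0.32, Chrm2 -0.27 to 0.12, Adcy5 -0.13 to 0.38 and Adcy6 -0.053 to 0.079.

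Over all 14506 genes, Dox called 4560 in p300kd cells (2269 without experiment 2 and 2359 without experiment 3) and 3992 in NS cells (6317 with the block, 1782 without experiment 2, 1937 without experiment 3). The p300 siRNA called 3 at 0 h, 7 at 8 h and 181 on average, and 390, 455 and 1380 with the block. With an experiment or array left out these counts ran from 0 to 20 at 0 h and from 0 to 17 at 8 h; the 181 became 0 without experiment 2, 0 without experiment 3, 371 without experiment 1, and 7 to 259 with 1 array left out, the 7 without the p300kd 0 h array of experiment 2 and 18 without the NS 8 h array of experiment 2. Centring on the genes tested moved the median Dox change of all genes to 0.145 in p300kd cells and 0.139 in NS cells, with 4344 rises and 1991 falls (2017 and 2543 without it) and 3800 rises and 1832 falls (1617 and 2375 without it); the 4 receptor falls were called in both kinds of cell under it. The fit to only the groups compared was not run for the average and the difference of responses, which use all 4 groups. Signal over background was not analysed here; leaving out genes under the 25th percentile of mean level changed no call of the 7.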
